A study of Mus musculus with 63 samples.

Results

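Lymphomas of Eµ-myc mice, which carry a Myc transgene driven in B-lineage cells by the immunoglobulin heavy-chain enhancer, were compared by how much Cdkn2a RNA they held 4 h after cyclophosphamide, a DNA-alkylating drug. The members were chosen by their Cdkn2a value, with treated arrays divided at 9.26 on the deposited log2 scale. This gave 12 lymphomas with high Cdkn2a and 19 with low Cdkn2a, 31 of the 63 arrays in all. The other 32 arrays were labelled native, and at the same value they held 11 high and 21 low arrays. All samples were labelled as Emu-myc transgenic on a C57BL/6 background and as unpurified primary lymphoma cells from lymph nodes. The protocol speaks of transplanted recipient mice given a single intraperitoneal dose of 300 mg/kg, a dose that the labels of 29 treated arrays carry, while the series description names lymphomas in a therapy-naive state only. Which arrays are treated therefore rests on the array labels. Each array carries its own lymphoma number, no label says that arrays came from separate mice, so p-values measure only how far these samples spread, which may be technical. No label used here gives the p53 status of a lymphoma.

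Cdkn2a encodes 2 unrelated proteins from separate first exons. INK4A inhibits the cyclin D-dependent kinases, and ARF binds MDM2 and so stabilises p53. In Eµ-myc lymphomas, MYC drives ARF and p53, and tumours commonly lose one or the other. Since p53 normally holds ARF down, lymphoma cells without working p53 are known to accumulate Cdkn2a RNA. DNA damage acts on p53 mainly through kinases, with targets such as Mdm2, Ccng1 and Bbc3 induced within hours.

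The RefSeq windows around the 2 starts of Cdkn2a, in build GRCm38.p6, are given here because the array value of 1 probe set, which defined the groups, was not divided between INK4A and ARF transcripts. Each window runs from 250 bases before to 50 bases after the start, 5′ to 3′ on the minus strand, and capitals mark GC boxes (GGGCGG or CCGCCC), which 35.7% of all 32851 windows hold. The window at chr4:89294570-89294869 is the upstream start, used for ARF, and holds 3 GC boxes. The window at chr4:89282143-89282442 is the downstream start, used for INK4A, and holds 1.
Cdkn2a upstream start: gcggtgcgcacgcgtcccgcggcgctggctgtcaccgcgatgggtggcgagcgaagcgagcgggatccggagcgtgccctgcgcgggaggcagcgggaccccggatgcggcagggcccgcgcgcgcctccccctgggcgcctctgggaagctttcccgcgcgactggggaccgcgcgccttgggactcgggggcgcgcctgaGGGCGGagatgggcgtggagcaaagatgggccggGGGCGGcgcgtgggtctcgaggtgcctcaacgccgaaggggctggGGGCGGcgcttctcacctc
Cdkn2a downstream start: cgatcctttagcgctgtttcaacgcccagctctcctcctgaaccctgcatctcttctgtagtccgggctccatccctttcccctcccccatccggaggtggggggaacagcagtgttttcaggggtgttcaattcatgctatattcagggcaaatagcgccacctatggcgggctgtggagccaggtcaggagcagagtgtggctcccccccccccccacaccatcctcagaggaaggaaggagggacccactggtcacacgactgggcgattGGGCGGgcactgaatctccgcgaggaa

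Cdkn2a had log2 values of 9.45, 9.82 and 10.75 (lowest, median and highest) in the 12 treated high-Cdkn2a arrays and 6.85, 7.49 and 8.95 in the 19 treated low-Cdkn2a arrays. These values chose the groups and are not a result. The arrays just above the dividing value had 9.45 and 9.61, and those just below it 8.95 and 8.73. In native lymphomas the same division gave 9.46, 9.80 and 10.45 in the 11 high arrays and 6.54, 7.54 and 9.07 in the 21 low arrays, so that high levels of Cdkn2a were seen with and without the drug.

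**Figure D1:**
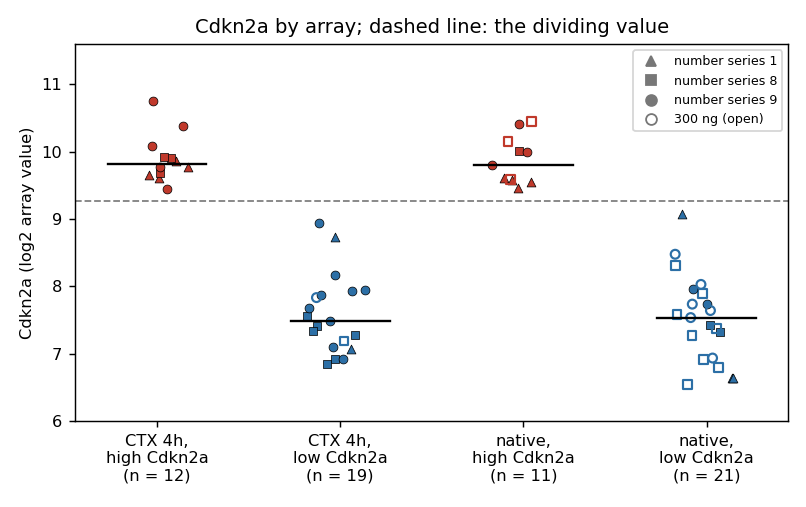
Log2 array value of Cdkn2a (vertical axis) for every array of the 4 groups, with a bar at each median and symbols for the lymphoma number series. The dashed line is the dividing value of 9.26, and all low arrays lie at 9.07 or below.

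The first digit of the lymphoma number (number series 1, 8 or 9) and the RNA input to labelling (100 or 300 ng) were terms of the model behind every value below unless another model is named. Number series 1 gave 4 high-Cdkn2a and 2 low-Cdkn2a treated arrays, series 8 gave 3 and 7, and series 9 gave 5 and 10. Both treated arrays of 300 ng had low Cdkn2a. Mean correlation of a treated array with the others ran from 0.943 (low-Cdkn2a replicate 20) to 0.974, and array medians of all 63 arrays from 6.53 to 7.11. Ranked by mean value among all genes in the treated arrays, the B-cell markers Cd79a, Cd79b, Pax5, Ebf1 and Blnk had percentiles of 93.8 to 99.7, and Myc averaged 13.19 (percentile 99.8). The macrophage markers Cd68, Csf1r, C1qa, C1qb, Adgre1 and Cd14 had percentiles of 52.8 to 97.6, in samples that were not purified.

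Among treated lymphomas, 251 of 19937 genes (1.26%) differed between high and low Cdkn2a at a Benjamini-Hochberg adjusted p under 0.05 in limma's moderated test on the log2 values. Of these, 148 were higher (0.742%) and 103 lower (0.517%) with high Cdkn2a. The differences were modest, with a median of 0.47 (log2) among the higher and -0.54 among the lower genes, and 9 and 5 genes reached a 2-fold difference. At an unadjusted p under 0.05, 1522 genes were higher (7.63%) and 1572 lower (7.88%), and 9065 of all 19937 differences were positive and 10872 negative (54.5%), which are the shares to set beside the list counts below. In no gene did the groups fail to overlap (0 of 19937, 0%). Because the groups were made from Cdkn2a in the same arrays, each difference is an association with Cdkn2a across lymphomas.

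These counts depended on single arrays, and leaving out any of 20 of the 31 moved at least one of them by over 1.5 times. They ran from 42 higher and 41 lower genes without high-Cdkn2a replicate 17 to 701 and 269 without low-Cdkn2a replicate 16. Without low-Cdkn2a replicate 20 they were 208 and 290, and 33 lower genes without high-Cdkn2a replicate 13 were the fewest. The genes called in all 31 of these fits were 34 of the 148 and 21 of the 103, and the genes described first below come mainly from them.

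Ppm1l encodes a serine/threonine phosphatase that acts on stress kinases and on the ceramide transport protein, and had the smallest p. It was picked, like Smagp, Ftl1, Tmem237, Ero1a, Arl3, P2ry10b and Zbtb8a below, after its values were seen. Ppm1l had log2 values of 7.24, 7.94 and 8.52 (lowest, median and highest) in high-Cdkn2a arrays, against 6.72, 7.19 and 7.75 in low-Cdkn2a arrays. All 12 high arrays lay above the median of the low arrays, while the ranges overlapped. Its fitted difference was 0.64 ± 0.09 (SE, limma adjusted p = 0.00149).

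Fmn2 encodes formin-2, an actin nucleator which in human cells is induced by ARF and protects the CDK inhibitor p21 from degradation. It had 5.72, 6.84 and 7.83 in high-Cdkn2a arrays and 4.74, 5.62 and 7.08 in low-Cdkn2a arrays, a difference of 0.93 ± 0.14 (SE, limma adjusted p = 0.0015). Within number series 1, 8 and 9 at 100 ng the differences of means were 0.88, 0.99 and 0.92. Its promoter window in RefSeq (GRCm38.p6, chr1:174501575-174501874, plus strand) is shown because it holds 1 match to the p53 decamer, in capitals, a 10-base consensus searched on both strands and matched in 8.36% of all windows.
Fmn2: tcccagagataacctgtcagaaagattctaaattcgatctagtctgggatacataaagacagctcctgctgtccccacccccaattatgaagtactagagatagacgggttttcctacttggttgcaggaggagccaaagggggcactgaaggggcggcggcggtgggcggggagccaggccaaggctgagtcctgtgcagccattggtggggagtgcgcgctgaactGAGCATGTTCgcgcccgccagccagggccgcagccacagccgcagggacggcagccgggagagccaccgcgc

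Slc39a10 encodes the zinc importer ZIP10, which B-cell survival depends on in mice. It had 9.85, 10.14 and 11.30 in high-Cdkn2a arrays and 8.16, 9.01 and 10.19 in low-Cdkn2a arrays. The difference was 0.998 ± 0.147 (SE, limma adjusted p = 0.0015). Sapcd1, a gene named after a suppressor APC domain, had 8.44, 9.12 and 9.56 in high-Cdkn2a arrays and 7.06, 7.75 and 8.81 in low-Cdkn2a arrays, a difference of 1.12 ± 0.17 (SE, limma adjusted p = 0.0015). The 8 genes of the plot of single genes were also tested by permutation, having been chosen for their small p or their role. The permutation used the same treated arrays and its p is not adjusted over genes, so it is no separate support. For Ppm1l, Fmn2, Slc39a10 and Sapcd1 the two-sided permutation of class within number series and RNA input (100000 resamples) gave p = 1e-05, the smallest these resamples can give. All 12 high arrays exceeded the low median for each of these genes.

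**Figure D2:**
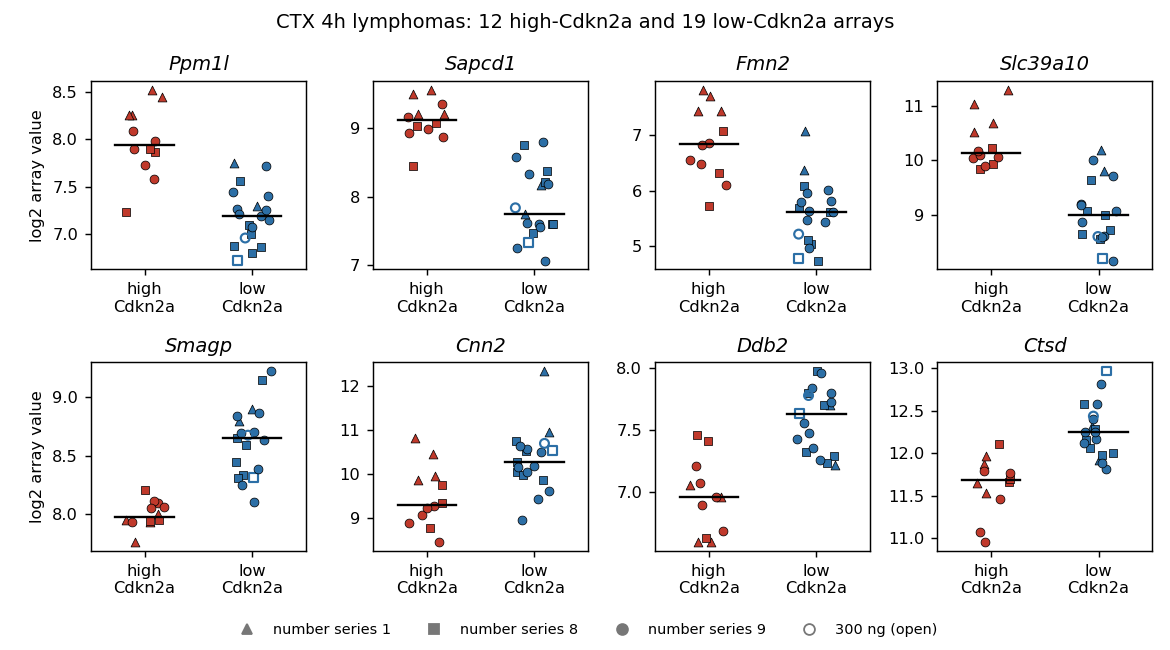
Log2 array values (vertical axes) of 8 genes in the 12 high-Cdkn2a and 19 low-Cdkn2a treated arrays, with bars at the medians and open symbols for 300 ng. Ppm1l, Sapcd1, Fmn2 and Slc39a10 were higher and Smagp, Cnn2, Ddb2 and Ctsd lower with high Cdkn2a, with overlapping ranges in each gene.

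Klhl41, a kelch protein of muscle sarcomeres, had the largest difference upward. It had 6.27, 9.12 and 10.81 in high-Cdkn2a arrays and 5.69, 6.05 and 10.04 in low-Cdkn2a arrays. Its difference was 1.92 ± 0.46 (SE, limma adjusted p = 0.0354), and 22 of 31 leave-one-out fits called it. Spinkl, of the Kazal family of protease inhibitors, differed by 1.55 ± 0.32 (SE) and Wfikkn2, a secreted binder of GDF ligands, by 1.41 ± 0.28 (SE), with limma adjusted p of 0.0152 and 0.0119. All 31 leave-one-out fits called both. Other genes among the 15 largest were the fatty acid elongase gene Elovl4 (1.28), the calcyphosine-like gene Capsl (1.21), the cilia gene Cfap300 (1.15), Spink11 (1.06) and Nat8l (1.03), which makes N-acetylaspartate. The sorting receptor gene Sorcs2 (0.99), the muscarinic receptor gene Chrm4 (0.95), Fhit (0.95), a hydrolase gene at a fragile site, and the microtubule gene Map2 (0.93) completed them. Limma adjusted p-values of these 9 genes ran from 0.0042 to 0.0499. Cfap300, Fhit and Map2 were called in all 31 leave-one-out fits and Nat8l in 30, but Spink11 and Sorcs2 in 13 each, Capsl in 10 and Elovl4 and Chrm4 in 7 each.

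Smagp, a small transmembrane adhesion glycoprotein gene, had the smallest p among the genes lower with high Cdkn2a. It had 7.76, 7.98 and 8.21 in high-Cdkn2a arrays and 8.11, 8.65 and 9.22 in low-Cdkn2a arrays, and all 12 high arrays lay below the low median. Its difference was -0.65 ± 0.10 (SE, limma adjusted p = 0.0015). Cnn2, the actin-binding calponin 2, had 8.46, 9.31 and 10.81 in high-Cdkn2a arrays and 8.96, 10.29 and 12.34 in low-Cdkn2a arrays, a difference of -1.08 ± 0.18 (SE, limma adjusted p = 0.0037). The permutation p was 1e-05 for both, the smallest possible.

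Itgal, the alpha chain of the leukocyte integrin LFA-1, differed most among the genes that were lower, by -1.19 ± 0.26 (SE, limma adjusted p = 0.0214). It had 6.66, 7.46 and 8.27 in high-Cdkn2a arrays and 7.07, 8.50 and 10.58 in low-Cdkn2a arrays. Spic, a transcription factor of red-pulp macrophages, differed by -1.005 (limma adjusted p = 0.0214) and the cytokine gene Il1a by -1.03 (0.0367). Other large differences downward were in the cytokine receptor chain gene Csf2rb (-0.92), the adaptor gene Lcp2 (-0.90), Klf3 (-0.89), Tspan31 (-0.87), the cholesterol exporter gene Abca1 (-0.86), the properdin gene Cfp (-0.81) and Zfp36l1 (-0.80), which promotes decay of AU-rich mRNAs. Gm1966 (-1.06), Lasp1 (-0.78), Prelp (-0.78) and the metalloprotease inhibitor gene Timp2 (-0.77) completed the 15 largest, with limma adjusted p-values of these 11 genes from 0.0102 to 0.0499. Cfp and Lasp1 were called in all 31 leave-one-out fits, but Lcp2 in 19, Abca1 in 12, Zfp36l1 in 9 and Csf2rb and Prelp in 8 each. Ftl1, the ferritin light chain, differed by -0.50 ± 0.09 (SE, limma adjusted p = 0.0054).

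The genes lower with high Cdkn2a were accompanied by lower macrophage markers. The mean log2 level of the 27 measured macrophage markers was 8.04, 8.75 and 9.22 (lowest, median and highest) in high-Cdkn2a arrays and 8.35, 9.18 and 10.14 in low-Cdkn2a arrays. In the fit, 25 of the 27 had a negative difference, with a median of -0.54 beside -0.01 over all genes, and 2 were called lower (0.517% of all genes), the efferocytosis receptor gene Mertk (-0.75, limma adjusted p = 0.0203) and Spic. Of the 27, 15 were lower at an unadjusted p under 0.05, beside 7.88% of all genes. The list median was -0.17, -0.07 and -0.65 within number series 1, 8 and 9 at 100 ng, and -0.02 in native lymphomas. In bulk samples fewer macrophages and less RNA per macrophage cannot be told apart. With a macrophage score (the centred mean of the list) in the model, 13 of the 148 higher and 2 of the 103 lower genes were still called. With macrophage and stromal scores together these were 9 and 1, namely Ppm1l, Slc39a10, Sapcd1, Fmn2, Tmem237, Ero1a, Arl3, Cfap300, P2ry10b and Smagp. All 148 and 103 kept their sign, in the same arrays in which they had been called. The median difference under both scores was 0.45 among the higher and -0.35 among the lower genes.

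Most other non-lymphoma lists also had negative medians. Salivary markers did not, with a median of 0.25 and 8 of 10 positive (native median -0.27), and erythroid markers had -0.01. Of 23 stromal and endothelial markers all 23 were negative (median -0.26), and decorin (Dcn, -0.76, limma adjusted p = 0.0401) was called. Neutrophil markers had a median of -0.53 over 13 genes, T-cell and NK-cell markers -0.42 over 20, dendritic cell markers -0.27 over 10 and adipocyte markers -0.41 over 10, with 0 called by limma in each. At an unadjusted p under 0.05, the numbers lower were 4, 4, 1 and 1, beside 7.88% of all genes, a share that 1 of 10 dendritic cell or adipocyte markers is near. In native lymphomas the neutrophil median was 0.41 with all 13 positive, and the T-cell and NK-cell, dendritic cell and adipocyte medians were -0.32, -0.17 and -0.25. With both the macrophage and the stromal score as terms, the neutrophil median was -0.43 and the T-cell and NK-cell median -0.26. The dendritic cell median was then -0.035 and the adipocyte median 0.19. Cd3e, of the T-cell receptor complex, had 7.25, 8.08 and 10.18 in high-Cdkn2a arrays and 7.02, 8.92 and 11.73 in low-Cdkn2a arrays, a difference of -0.80 ± 0.40 (SE, limma adjusted p = 0.334). With the T-cell and NK-cell score in the model, an alternative chosen after seeing the data, 27 of the 148 and 17 of the 103 were still called.

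Native lymphomas gave a measure of the same contrast in arrays that neither chose the treated groups nor entered their fit. All 148 genes that were higher in treated high-Cdkn2a lymphomas had a positive difference in native ones, and 105 of them did so at an unadjusted p under 0.05. Among all genes with a positive treated difference these shares were 64.1% and 12.2%. Of the 103 genes that were lower, 101 had a negative native difference and 51 did so at an unadjusted p under 0.05, beside 71.8% and 6.14% of all genes with a negative treated difference. The median native difference was 0.42 among the higher and -0.26 among the lower genes. On its own, the native comparison called 0 genes higher (0%) and 1 lower (0.00502%) in limma, with 1217 and 728 at an unadjusted p under 0.05. The called gene was Zbtb8a, a zinc-finger gene, with -0.81 ± 0.11 (SE, adjusted p = 5.72e-04) in native and -0.49 ± 0.12 (SE, adjusted p = 0.0339) in treated lymphomas.

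The genes described first had native differences of the same sign, without passing the threshold there. In native lymphomas Ppm1l differed by 0.56 ± 0.11, Fmn2 by 0.94 ± 0.18 and Sapcd1 by 0.95 ± 0.19 (SE), each with a limma adjusted p of 0.0521. Spinkl differed by 1.72 ± 0.35 (SE, limma adjusted p = 0.0551) and Slc39a10 by 0.57 ± 0.28 (SE, limma adjusted p = 0.518). Fmn2 had 5.78, 6.89 and 7.93 in native high-Cdkn2a arrays and 4.93, 5.62 and 7.26 in native low-Cdkn2a arrays, with overlapping ranges. Smagp differed by -0.37, Itgal by -0.89 and Ctsd by -0.02 in native lymphomas.

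**Figure D3:**
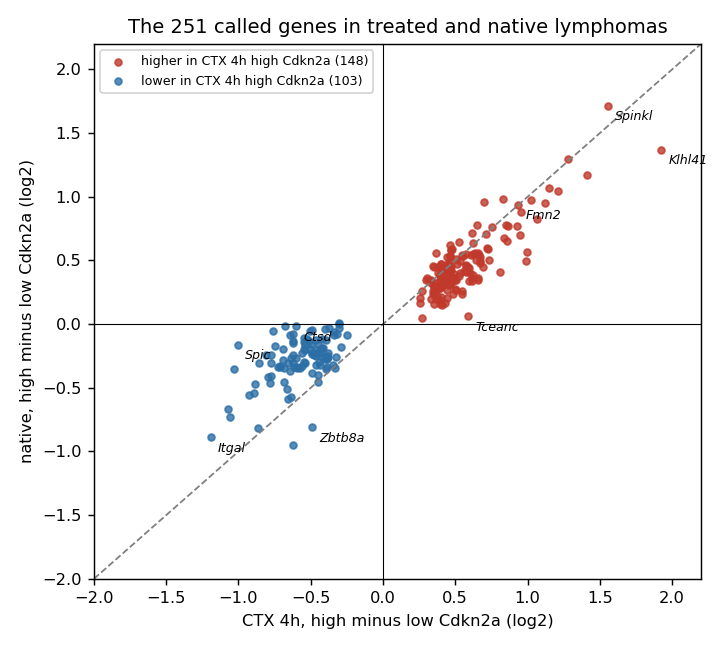
Difference between high and low Cdkn2a (log2) in treated lymphomas (horizontal axis) and in native lymphomas (vertical axis) for the 251 called genes, with a dashed line of equality. The 148 higher genes lie along the line with a native median of 0.42, and the 103 lower genes lie nearer to 0 in native lymphomas, with a median of -0.26.

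Whether the contrast itself differed between treated and native lymphomas was tested in a joint fit of all 63 arrays. Limma called 0 genes in either direction (0%), the smallest adjusted p being 0.9999, with 224 positive and 443 negative differences at an unadjusted p under 0.05. The 8 genes of smallest p were Tceanc, Spic, Ap3b2, Atat1, Csf3r, Mcoln1, Dvl1 and Ctsd. Spic, for example, differed between high and low Cdkn2a by -1.005 in treated and by -0.163 in native lymphomas (difference in the joint fit -1.07 ± 0.28, SE). Ctsd, the lysosomal protease cathepsin D, differed by -0.60 in treated and -0.02 in native lymphomas (difference -0.64 ± 0.18, SE). Tceanc, which carries a transcription elongation factor domain, differed by 0.59 in treated and 0.06 in native lymphomas.

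Genes controlled by p53 were described from 3 lists of 55 measured members. At 4 h, 1 of them was higher and 2 lower with high Cdkn2a, beside 0.742% and 0.517% of all genes, and 40 of 55 had a negative difference (median -0.11). Ddb2, which recognises DNA lesions for nucleotide excision repair and is a p53 target in human cells, had 6.60, 6.96 and 7.46 in high-Cdkn2a arrays and 7.22, 7.63 and 7.98 in low-Cdkn2a arrays. All 12 high arrays were below the low median, and the difference was -0.56 ± 0.11 (SE, limma adjusted p = 0.0075, called in all 31 leave-one-out fits). Ctsd was the other lower member, with 10.95, 11.68 and 12.11 in high-Cdkn2a arrays and 11.82, 12.25 and 12.97 in low-Cdkn2a arrays (limma adjusted p = 0.0119). The permutation p was 2e-05 for each. Rrm2b, the p53-inducible subunit of ribonucleotide reductase, was higher by 0.61 ± 0.15 (SE, limma adjusted p = 0.0418, called in 17 of 31 leave-one-out fits), with 7.79, 8.27 and 9.33 in high-Cdkn2a arrays and 6.61, 7.73 and 8.47 in low-Cdkn2a arrays. In native lymphomas Ddb2 differed by -0.33 and Rrm2b by 0.34 (limma unadjusted p of 0.0118 and 0.0153), and Ctsd by -0.02.

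Of the 14 feedback and arrest genes, limma called 0, with 0 higher and 2 lower at an unadjusted p under 0.05, beside 7.63% and 7.88% of all genes. Mdm2, the ubiquitin ligase that restrains p53, had 8.92, 9.34 and 9.98 in high-Cdkn2a arrays and 8.97, 9.55 and 10.23 in low-Cdkn2a arrays, a difference of -0.17 ± 0.12 (SE, limma adjusted p = 0.545). Ccng1, cyclin G1, had 10.27, 11.26 and 12.57 in high-Cdkn2a arrays and 10.79, 11.63 and 12.49 in low-Cdkn2a arrays (-0.56 ± 0.19, SE, limma adjusted p = 0.126). The remaining members ranged up to 0.37 for Ccng2, and Plk3 had -0.34, Gtse1 -0.23, Ppm1d -0.19, Trp53inp1 -0.17, Btg2 -0.07, Mdm4 -0.06, Zmat3 -0.04, Rprm 0.06, Ptprv 0.08, Plk2 0.20 and Rchy1 0.22. The groups overlapped in each of these genes.

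Of the 18 death effectors, limma also called 0, with 0 higher and 6 lower at an unadjusted p under 0.05 (7.88% of all genes were lower), and 14 had a negative difference, beside 54.5% of all genes. Phlda3, which blocks AKT signalling at membranes, had 6.78, 7.49 and 8.55 in high-Cdkn2a arrays and 7.31, 8.45 and 10.17 in low-Cdkn2a arrays (-0.78 ± 0.24, SE, limma adjusted p = 0.0858). The caspase-2 adaptor gene Pidd1 had -0.50 (0.124), the BH3-only genes Bbc3 (PUMA) and Pmaip1 (NOXA) -0.45 (0.113) and -0.37 (0.246), the death receptor gene Fas -0.41 (0.254) and Ninj1, which ruptures the membranes of dying cells, -0.31 (0.121), each with limma's adjusted p in brackets. The other members lay between -0.24 (Dapk1) and 0.23 (Rps27l), among them Tnfrsf10b, Aen, Apaf1, Trp53i11, Bid, Eda2r, Ei24, Casp6, Triap1 and Perp.

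Of the 23 repair and metabolism genes, 17 had a negative difference, beside 54.5% of all genes. Sesn2, a brake on mTORC1, had 6.93, 7.41 and 8.05 in high-Cdkn2a arrays and 7.03, 8.21 and 9.04 in low-Cdkn2a arrays (-0.60 ± 0.21, SE, limma adjusted p = 0.138). Ephx1 had -0.64, the bypass polymerase gene Polk -0.52, the autophagy gene Dram1 -0.48, the thiamine transporter gene Slc19a2 -0.47 and Dcxr -0.26, with limma adjusted p-values from 0.0861 to 0.191. The other members, Ddit4, Sesn1, Xpc, Ercc5, Tigar, Ak1, Cpt1c, Prkab1, Fancc, Mgmt, Zfp365, Abhd4, Cdip1 and Pltp, lay between -0.26 and 0.31 and were not called.

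The p53 lists are also given by number series, whose differences from each other were not tested. Within series 9 at 100 ng the median differences of the feedback, death and repair lists were -0.31, -0.27 and -0.25. Within series 8 they were 0.17, 0.01 and -0.11, and within series 1 they were 0.05, -0.09 and 0.04. Mdm2, for example, differed by 0.15, 0.21 and -0.54 in series 1, 8 and 9, whereas Ddb2 differed by -0.66, -0.39 and -0.63. When the fit included scores for macrophage and stromal markers, the medians of the 3 lists were 0.07, -0.09 and 0.02, and no called member passed the threshold, with Ddb2 at -0.56 (limma adjusted p = 0.0911), Ctsd at -0.29 and Rrm2b at 0.635 (limma adjusted p = 0.2285 for both).

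Levels after the drug were also set against native lymphomas of the same Cdkn2a class, in comparisons that share their treated arrays with the contrast above. Between treated and native high-Cdkn2a lymphomas limma called 0 genes (0%), with 252 higher and 479 lower at an unadjusted p under 0.05. Between treated and native low-Cdkn2a lymphomas it called 199 higher (0.998%) and 66 lower (0.331%), 265 in all (1.33%). The classes held 12 and 11 arrays in the first comparison and 19 and 21 in the second. RNA input moved with treatment, as 29 of 31 treated but 15 of 32 native arrays had 100 ng, and with the 100 ng arrays alone the low-Cdkn2a counts were 1 and 0. Since limma called no gene for the difference between the classes, these unequal counts do not show that the classes differed.

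Of the 55 p53 genes limma called 0 between treated and native high-Cdkn2a lymphomas. Between treated and native low-Cdkn2a lymphomas 14 of the 55 were higher and 1 lower, beside 0.998% and 0.331% of all genes. Other lists moved in the same comparison: 11 of 27 macrophage markers, 18 of 26 small nucleolar and other small RNAs, 10 of 24 immediate early genes and 7 of 18 secretory genes were higher, and 8 of 29 G2 and mitosis genes lower. The median of the macrophage markers was 0.10 in the high-Cdkn2a class and 0.59 in the low-Cdkn2a class, and that of the small RNAs 0.32 and 0.66. Their part in the p53 values was not tested. Treated minus native, Sesn2 had 0.36 ± 0.20 (SE) in high-Cdkn2a lymphomas (limma adjusted p = 0.9999) and 1.10 ± 0.18 (SE) in low-Cdkn2a ones (limma adjusted p = 2.02e-04). Phlda3 had 0.35 in high-Cdkn2a and 1.01 in low-Cdkn2a lymphomas, Slc19a2 0.14 and 0.87, Pidd1 0.08 and 0.75, Trp53inp1 0.05 and 0.69, Mdm2 0.09 and 0.53, and Bbc3 0.19 and 0.48. Plk2, Ddit4, Plk3, Ctsd, Pmaip1, Ninj1 and Dcxr were called higher and Fancc lower in the low-Cdkn2a class. The median over the 55 genes was 0.08 in the high-Cdkn2a class and 0.20 in the low-Cdkn2a class, beside -0.01 and -0.02 over all genes. High minus low class, the response differed most in Sesn2 (-0.74 ± 0.26, SE) and Slc19a2 (-0.73 ± 0.22, SE) among the 55, with limma unadjusted p of 0.0053 and 0.0019, and limma's adjusted p was 0.9999 for every member. With 100 ng arrays alone, Sesn2 had 0.34 in the high-Cdkn2a and 0.83 in the low-Cdkn2a class, and none of the 55 was called.

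**Figure D4:**
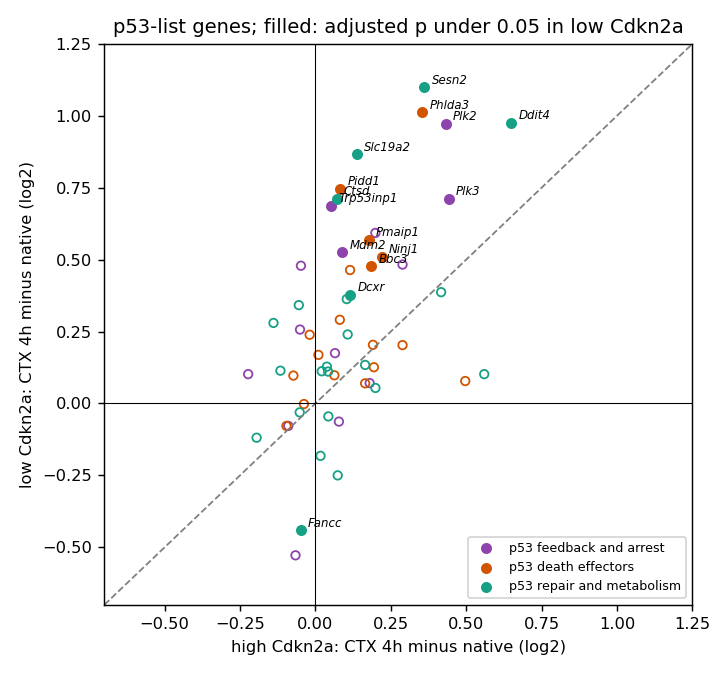
Treated minus native level (log2) in high-Cdkn2a lymphomas (horizontal axis) and in low-Cdkn2a lymphomas (vertical axis) for the 55 measured genes of the p53 lists, with a dashed line of equality. The 15 filled genes passed limma's adjusted p of 0.05 in the low-Cdkn2a class, none passed in the high-Cdkn2a class, and 14 of the 15 lie above 0.35 on the vertical axis.

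The promoter windows of Mdm2 and Ccng1 are given because both are established p53 targets with treated minus native values of 0.09 and 0.20 in high-Cdkn2a lymphomas and 0.53 and 0.59 in low-Cdkn2a ones (limma adjusted p in the low-Cdkn2a class 0.0071 for Mdm2 and 0.0646 for Ccng1). Capitals mark the p53 decamer, with 1 match in each window. Of the 14 windows of the feedback list 5 held it (35.7%), and of the windows of the death and repair lists 21.1% and 10.7%. The share was 8.36% of all windows and 7.35% of the windows of genes tested. Of the windows of the genes higher and lower with high Cdkn2a it was 6.25% and 8.85%. Whether p53 binds the marked matches was not tested. Both are on the minus strand of GRCm38.p6, Mdm2 at chr10:117710709-117711008 and Ccng1 at chr11:40755237-40755536.
Mdm2: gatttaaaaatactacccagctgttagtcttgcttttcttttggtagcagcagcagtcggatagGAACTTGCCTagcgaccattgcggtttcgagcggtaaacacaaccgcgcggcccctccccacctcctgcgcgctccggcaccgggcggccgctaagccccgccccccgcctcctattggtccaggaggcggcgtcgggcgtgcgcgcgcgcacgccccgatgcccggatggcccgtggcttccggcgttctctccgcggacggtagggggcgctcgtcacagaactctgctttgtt
Ccng1: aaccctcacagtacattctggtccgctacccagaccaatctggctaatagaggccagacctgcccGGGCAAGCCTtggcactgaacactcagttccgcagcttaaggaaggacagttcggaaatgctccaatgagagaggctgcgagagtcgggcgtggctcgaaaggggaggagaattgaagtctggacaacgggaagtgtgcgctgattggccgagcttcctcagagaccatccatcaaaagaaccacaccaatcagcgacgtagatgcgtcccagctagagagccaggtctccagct

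No gene next to Cdkn2a was called. Cdkn2b, which encodes INK4B and adjoins Cdkn2a, had 6.66, 6.86 and 7.32 in high-Cdkn2a arrays and 6.54, 6.79 and 7.58 in low-Cdkn2a arrays, a difference of 0.03 ± 0.10 (SE, limma adjusted p = 0.947). The methylthioadenosine phosphorylase gene Mtap had 0.13, Dmrta1 -0.09 and Klhl9 0.01. Among the other CDK inhibitor genes, Cdkn2d (INK4D) had 7.28, 7.91 and 8.53 in high-Cdkn2a arrays and 7.21, 7.55 and 8.02 in low-Cdkn2a arrays (0.33 ± 0.11, SE, limma adjusted p = 0.132). Cdkn2c, Cdkn1b and Cdkn1c had -0.25, -0.16 and -0.20. Limma called 0 of the 8, with 1 higher and 1 lower at an unadjusted p under 0.05, beside 7.63% and 7.88% of all genes. Of 26 regulators of Cdkn2a and partners of ARF it called 0 as well, with 0 higher and 5 lower unadjusted, beside the same shares. A negative difference was seen in 19 of the 26, beside 54.5% of all genes. The list median was -0.11 in treated and 0.04 in native lymphomas. The repressor genes Bmi1 and Ezh2 had -0.15 and 0.03, and Cbx7, of the same Polycomb complexes as Bmi1, -0.54 (limma adjusted p = 0.0632).

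The genes of the G2 and mitosis list had mostly positive differences, none of which passed the test. Of 29 G2 and mitosis genes 28 had a positive difference (median 0.58), 23 at an unadjusted p under 0.05 (7.63% of all genes), but limma called 0. With both the macrophage and the stromal score as terms, the list median was 0.20. Bub1, a spindle checkpoint kinase gene, had 9.56, 10.63 and 11.82 in high-Cdkn2a arrays and 8.79, 9.68 and 11.19 in low-Cdkn2a arrays (0.67 ± 0.19, SE, limma adjusted p = 0.0600). Hmmr had 0.85, Cenpa 0.72 and Cdc20 0.67, with limma adjusted p-values of 0.0725 to 0.0742. Plk1, the polo-like kinase of mitotic entry, had 9.92, 11.06 and 12.22 in high-Cdkn2a arrays and 8.31, 9.84 and 11.80 in low-Cdkn2a arrays (0.78 ± 0.26, SE, limma adjusted p = 0.121). All 12 high arrays lay above the low median of Plk1. The list median was 0.30, 0.14 and 0.94 within number series 1, 8 and 9 and 0.25 in native lymphomas. With the G2 and mitosis score in the model, 13 of the 148 and 14 of the 103 called genes were still called.

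The window of Plk1 is shown because many mitotic promoters share the CHR element (TTTGAA on either strand), through which the DREAM complex, which p53 activates, represses them. CHR was present in 17 of the 24 windows of the list (70.8%), beside 17.9% of all windows, 12.5% of those of the genes higher with high Cdkn2a and 11.5% of those of the genes lower with it. Plk1 lies at chr7:122159185-122159484 on the plus strand of GRCm38.p6, and capitals mark its 1 CHR match.
Plk1: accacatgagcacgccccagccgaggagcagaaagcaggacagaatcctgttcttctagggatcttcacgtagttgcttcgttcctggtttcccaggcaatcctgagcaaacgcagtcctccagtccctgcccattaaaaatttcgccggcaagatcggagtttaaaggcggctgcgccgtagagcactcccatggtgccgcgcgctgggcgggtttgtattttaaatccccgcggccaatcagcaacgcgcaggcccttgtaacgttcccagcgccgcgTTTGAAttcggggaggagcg

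The array value of Myc itself was not divided between the transgene and its own locus. Myc had 12.98, 13.35 and 13.79 in high-Cdkn2a arrays and 12.36, 13.04 and 13.69 in low-Cdkn2a arrays (0.23 ± 0.09, SE, limma adjusted p = 0.215), and 11 of the 12 high arrays lay above the low median. Of 37 genes of the MYC network and its targets 30 had a positive difference (median 0.15, native median 0.32), beside 45.5% of all genes. Among the 37, 11 were higher and 1 lower at an unadjusted p under 0.05, beside 7.63% and 7.88% of all genes. Limma called 1 of the 37 higher, beside 0.742% of all genes. This was nucleostemin (Gnl3), a nucleolar GTPase, with 0.46 ± 0.11 (SE, limma adjusted p = 0.0379), called in 19 of 31 leave-one-out fits. Of 27 DNA repair and checkpoint genes limma also called 1 higher, beside the same 0.742%. At an unadjusted p under 0.05, 2 of the 27 were higher and 0 lower. The called gene was Lig4, the ligase of non-homologous end joining, with 0.62 ± 0.15 (SE, limma adjusted p = 0.0343). Lig4 had 0.64 in native lymphomas and was called in 24 of 31 leave-one-out fits of the treated arrays. Limma called 0 of 35 replication genes and 0 of 20 genes of the BCL2 family and caspases, with 1 higher and 1 lower and 2 higher and 1 lower at an unadjusted p under 0.05. Bcl2 had -0.26 ± 0.25 and Bcl2l11 (BIM) -0.27 ± 0.20 (SE).

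**Figure D5:**
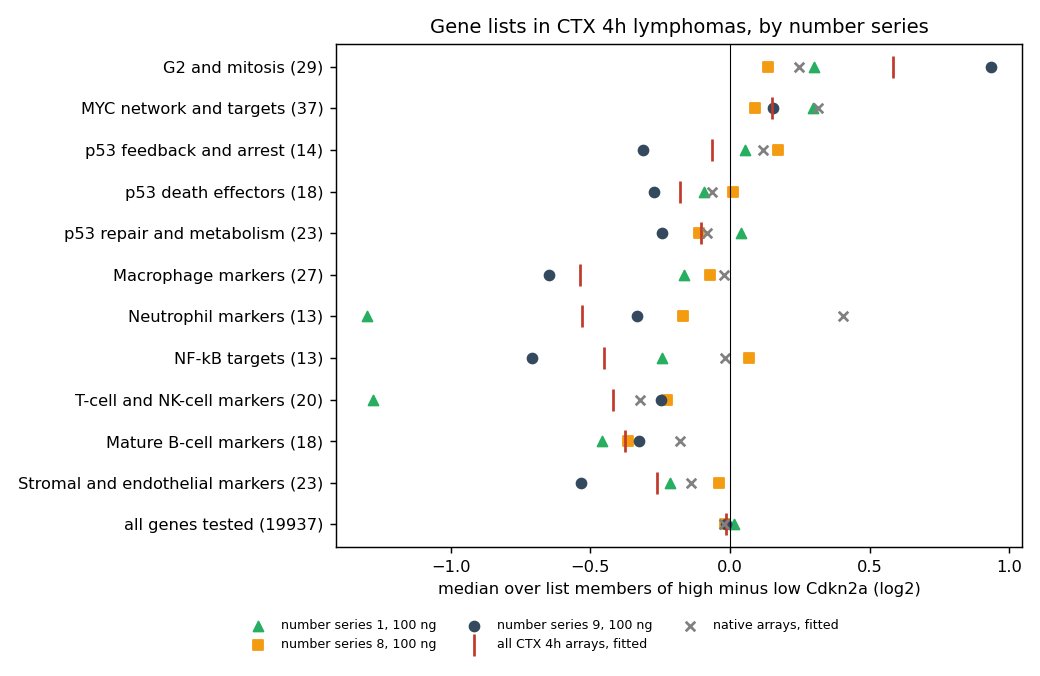
Median over list members of the difference between high and low Cdkn2a (log2, horizontal axis) for 11 gene lists and all genes, within each number series at 100 ng, fitted over all treated arrays and fitted over native arrays. The G2 and mitosis, macrophage and NF-kB medians lie farthest from 0 in series 9, at 0.94, -0.65 and -0.71.

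The signalling and stress lists had negative medians, as the macrophage markers did. All 13 NF-kB target genes had a negative difference (median -0.45), as did 21 of 24 immediate early genes (-0.18), 13 of 15 NRF2 and metallothionein genes (-0.22) and 24 of 26 interferon response genes (-0.23). Limma called 0 in each of these lists, with 7, 5, 5 and 2 lower and 0 higher at an unadjusted p under 0.05, and the 2 of 26 interferon genes are near the 7.88% of all genes. With both the macrophage and the stromal score as terms, the medians were -0.14 (NF-kB), 0.03 (immediate early), -0.08 (NRF2 and metallothionein) and 0.04 (interferon). The NF-kB median was 0.07 within number series 8 and -0.02 in native lymphomas. Hmox1, heme oxygenase 1, had 9.21, 10.86 and 11.74 in high-Cdkn2a arrays and 9.74, 11.80 and 13.02 in low-Cdkn2a arrays (-0.85 ± 0.27, SE, limma adjusted p = 0.0994), and it differed by 0.51, -0.45 and -1.67 within number series 1, 8 and 9. The secretory and senescence-associated list (18 genes, median -0.33, and 0.08 with both scores in the model) had Il1a called lower, and the plasma cell list (8 genes, median -0.14) had Xbp1, the transcription factor of the unfolded protein response and plasma cells, called lower by -0.54 ± 0.13 (SE, limma adjusted p = 0.0305).

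Markers of B-cell stage overlapped widely between the groups. Limma called 0 of 14 pan-B-cell, 0 of 18 precursor B-cell and 0 of 18 mature B-cell markers, with medians of 0.07, -0.19 and -0.38. At an unadjusted p under 0.05, 0, 1 and 5 were lower and 0 higher, beside 7.88% and 7.63% of all genes. Of the 18 mature B-cell markers 17 had a negative difference in treated lymphomas, beside 54.5% of all genes, and 17 in native ones. Their median was -0.46, -0.36 and -0.33 within number series 1, 8 and 9 at 100 ng. It was -0.18 in native lymphomas and -0.28 with both the macrophage and the stromal score as terms. Igll1, part of the surrogate light chain, ranged from 6.54 to 11.26 in high-Cdkn2a arrays and from 4.99 to 13.80 in low-Cdkn2a arrays. Ighm had 7.52, 8.18 and 10.52 in high-Cdkn2a arrays and 6.51, 8.71 and 12.10 in low-Cdkn2a arrays (-0.69 ± 0.43, SE, limma adjusted p = 0.479). Limma called no member of the lists of erythroid, salivary, small RNA, unfolded protein, glucocorticoid-induced, lysosome, glucose metabolism and H3K9 methylation genes, whose medians lay between -0.12 and 0.25. At an unadjusted p under 0.05, 4 of 15 glucose metabolism genes were higher and 0 lower, beside 7.63% and 7.88% of all genes. Their median was 0.11, with 11 of the 15 positive, beside 45.5% of all genes. Of 20 lysosome genes 2 were higher and 4 lower, and of 18 unfolded protein genes 1 was higher and 3 lower. The remaining lists had at most 1 gene in either direction.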

How the data were processed

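RNA of lymph node lymphoma cells was measured on Affymetrix arrays, 1 array per lymphoma number. The deposited values are log2 expression, made by the authors with Partek 6.5 and RMA, per the submitters' processing notes; scanner intensities were not used. The annotation gave a single gene symbol for 21789 of 35557 probe sets, several for 1621 and none for 12147, and 21698 of the 21789 matched RefSeq genes (GRCm38.p6). Where a gene had several probe sets, the one of highest mean was kept, which left 19938 genes, and 19937 were tested without Cdkn2a.

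Arrays were grouped by label and by Cdkn2a at 9.26. The treated and native contrasts were fitted separately, and 1 joint fit of 4 groups over 63 arrays gave the difference and the treated minus native values, all with limma 3.58.1 in R 4.3.3 (lmFit, eBayes, two-sided), with number series and RNA input as terms and Benjamini-Hochberg adjustment over 19937 genes. Single genes were permuted within number series and RNA input (100000 resamples). The limma step was tested on simulated data over 19937 genes for the treated contrast: it recovered 64 of 100 genes changed by 0.5 (log2) and 97 of 100 changed by 1, and called 10 unchanged genes.

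The members and gene lists were chosen with earlier results of these data known. Genes named are the 15 largest differences in each direction among called genes with the same sign in each number series, the 4 smallest p-values at most in any list, all members of the p53 and Cdkn2a neighbour lists, the 8 smallest p of the difference, and a few fixed genes (Myc, Bcl2, Bcl2l11, Bmi1, Ezh2, Igll1, Ighm, Plk1, Hmox1 and Cd3e among them). The number of arrays limits the precision. Cdkn1a and Trp53 were not analysed here. Sequences are from RefSeq.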

Additional observations from a re-analysis of the deposited data

How the results depend on the processing

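Of the 251 called genes, 148 of 148 higher and 102 of 103 lower had the same sign within each number series. The exception was Gas1 (-0.31, limma adjusted p = 0.0418), named after its values were seen, with 0.00186 within number series 8 at 100 ng. All 251 kept their sign with macrophage and stromal scores in the model, and no scaling moved the median of all genes by over 0.1 (log2). The sign counts by number series and with scores come from the arrays in which these genes were called. They are therefore no separate support for the calls. The counts among treated lymphomas, 148 higher and 103 lower in the report, moved widely. They were 339 and 233 without the RNA input term, 302 higher without the number series term, and 688 and 292 without either. Within number series 1, 8 or 9 alone limma called 0 and 0. Dividing at 8.6 gave 12 and 25, Cdkn2a as a continuous term 20 and 31, and leaving out arrays between 8.6 and 9.6 gave 35 and 61. A common array median gave 35 and 21 and quantile normalization 454 and 206. Genes with a mean of at least 7 gave 235 and 189, eBayes with trend and robust settings 98 higher, array weights 416 and 299, and a fold change of at least 1.5 gave 50 and 44. With a score in the model, counts over all genes were 14 and 2 (macrophage), 10 and 1 (macrophage and stromal), 13 and 24 (G2 and mitosis), 169 lower (small nucleolar RNA) and 229 higher (precursor B-cell). The macrophage score contains Mertk and Spic themselves. Among alternatives chosen after seeing the data, the T-cell and NK-cell score gave 27 and 17, leaving out the 2 treated arrays of lowest mean correlation gave 58 higher, and leaving out low-Cdkn2a replicates 16 and 20 gave 770 and 509. The cause of these changes was not tested.

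Leave-one-out counts ran from 42 to 701 higher and from 33 to 290 lower. Higher and lower counts without a high-Cdkn2a array were 85 and 88 (replicate 3), 75 and 69 (8), 80 and 33 (13), 55 and 34 (14), 64 and 84 (15), 42 and 41 (17), 81 and 62 (24), 94 and 64 (26), 86 and 65 (27), and 90 and 58 (28). Without a low-Cdkn2a array they were 192 and 171 (replicate 1), 77 and 64 (6), 58 and 49 (9), 62 and 49 (11), 69 and 53 (12), 701 and 269 (16), 63 and 47 (19), 208 and 290 (20), 76 and 61 (23), and 47 and 40 (29).

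In native lymphomas, leaving out the 2 arrays of lowest Myc gave 7 higher and 3 lower genes, the division at 8.6 gave 5 higher, and 100 ng or 300 ng arrays alone gave 0 lower. Treated against native within low Cdkn2a gave 1 higher and 0 lower with 100 ng arrays alone, the higher gene being Hmox1, and 154 lower with RNA input alone in the model. The difference between treated and native contrasts and the comparison within high Cdkn2a stayed at 0 under every alternative run. No paired analysis was possible because no label ties a high-Cdkn2a array to a low-Cdkn2a array or a treated array to a native one. Counts of called genes thus changed widely with the settings. The genes called in all leave-one-out fits were selected by p in these same arrays. Their repeated calls are no separate support for the size of their differences.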

Other observations

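Gene families were taken by symbol after the values were seen. Of 77 measured genes of the mitochondrial ribosome (Mrpl and Mrps), which translates the mitochondrial genome, 71 had a positive difference with high Cdkn2a in treated lymphomas, with a median of 0.18 (log2) beside -0.01 over all genes, and limma called 7 higher and 0 lower, beside 0.742% and 0.517% of all genes. The native median was 0.19, with 74 of 77 positive. Of 45 proteasome subunit genes 38 were positive (median 0.18, native 0.27), and limma called 3 higher and 0 lower, beside the same shares of all genes. Of 43 genes of respiratory complex I 41 were positive (median 0.16, native 0.19), and limma called none, while all 9 chaperonin genes were positive (median 0.25) and limma called 1 of the 9 higher. Genes of the cytosolic ribosome had a median of 0.01 over 67 genes, 36 of them positive. Chemokine genes had a median of -0.27 over 32 genes, 28 of them negative, with a native median of -0.06, and limma called none.

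GC boxes were present in 69.4% of the 144 promoter windows of the genes higher with high Cdkn2a and in 57.5% of the 113 windows of those lower with it, beside 49.2% of the windows of all genes tested. No test was made of these shares.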
